A study of Mus musculus with 6 samples.

Results

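Toll-like receptors and the molecules that act beside them at the membrane were followed in dermal fibroblasts with or without Nelfb that had been kept under adipogenic conditions. The members were taken by gene symbol: the receptors Tlr1, Tlr2, Tlr3, Tlr4, Tlr6, Tlr7, Tlr8 and Tlr9, the co-receptor Cd14 and the adaptor Myd88. All 10 of 10 symbols were found among the 17924 genes of the expression table.

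Fibroblasts were isolated from newborn (P0) dorsal dermis on a C57BL/6J background and kept for 14 days in adipocyte differentiation medium before RNA-seq. All cells carried Pdgfra-Cre+/-, a Cre driven by Pdgfra that acts in cells of the mesenchymal lineage. Control cells (CTL, n = 3) had either the fl/wt or the wt/wt genotype at Nelfb, which the labels do not give for each library, and knockout cells (Nelfb-/-, n = 3) were fl/fl at Nelfb. The comparison asks which genes depend on NELF-B, a subunit of the negative elongation factor that holds RNA polymerase II in a paused state near the start of genes.

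Toll-like receptors are membrane proteins that recognise conserved molecules of microbes and of damaged tissue. TLR2, paired with TLR1 or TLR6, binds bacterial lipoproteins at the cell surface, and TLR4 binds lipopolysaccharide that CD14 hands on to it, while TLR3, TLR7, TLR8 and TLR9 sense nucleic acids in endosomes. All of these receptors except TLR3 signal through the adaptor MYD88 to NF-kB, and macrophages express most of them, while fibroblasts and adipocytes are known to respond through TLR2, TLR3 and TLR4.

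The libraries held 17.2 to 29.4 M reads, and 3 reads, the floor used here for detection, corresponded to 0.102 to 0.175 counts per 1000000 reads (CPM). Nelfb itself stood at 17.3, 19.6 and 22.3 CPM in CTL and at 5.50, 3.90 and 5.55 CPM in Nelfb-/- (log2 fold change -1.99, SE 0.22, limma adjusted p 0.0050). Of 5 sex-linked genes only Xist passed between the groups. It stood at 771, 29.8 and 15.3 CPM in CTL against 0.427, 0.116 and 0.204 CPM in Nelfb-/- (limma adjusted p 0.0158), and Ddx3y at 5.05 CPM in CTL replicate 1 against 91.9 to 162 CPM in the other 5 libraries. Tlr7, Tlr8 and Tlr13 lie on the X chromosome, and without CTL replicate 1 the log2 fold changes were 3.36 for Tlr7 and 4.05 for Tlr8 (limma adjusted p 0.0640 and 0.0212).

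Of the 10 members, 8 rose in Nelfb-/- at an adjusted p of at most 0.05 and at least 2-fold (limma) and none fell, also at an unadjusted p under 0.05. By the same rule 7.58% of all 16252 tested genes rose, 3.64% fell and 11.2% changed in either direction. Tlr1, Tlr2, Tlr3, Tlr6, Tlr7, Tlr8, Tlr9 and Cd14 rose, while Tlr4, at -0.33, and Myd88, at 0.31 on the log2 scale, did not pass the test. The same 8 had every Nelfb-/- library above every CTL library, an arrangement found for 22.0% of tested genes (38.1% in either direction). The median log2 fold change was 2.11 over the 10 members and 0.068 over all tested genes. The 8 include Tlr1 and Tlr9, which averaged 0.257 and 0.0910 CPM in CTL. To be tested, a gene had to average 0.448 CPM over all libraries, and these genes reached that only through their Nelfb-/- values.

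**Figure D1:**
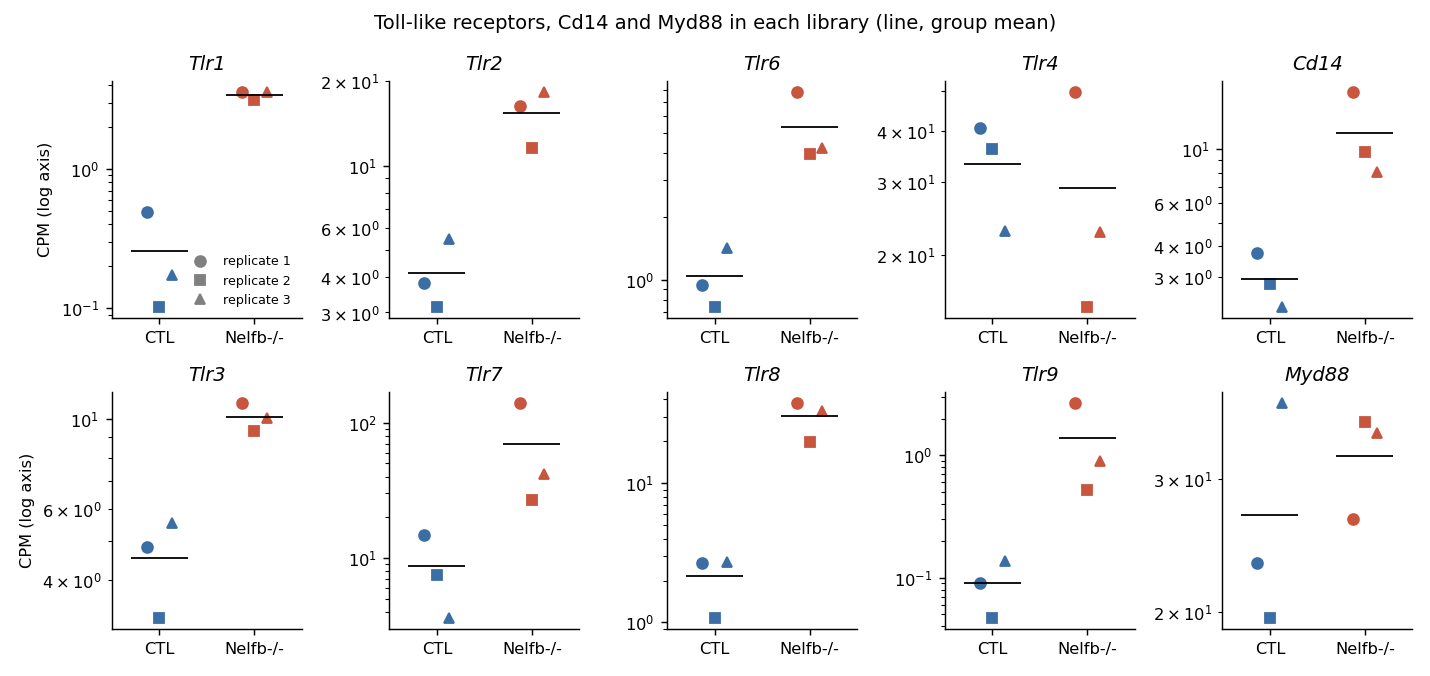
Level of each member in CPM (log axis) in the 3 CTL and 3 Nelfb-/- libraries, with each point a library. The groups lie apart for 8 members and overlap for Tlr4 and Myd88.

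The surface receptor Tlr2 (chr3:83836272-83841767, minus strand, GRCm38/mm10) stood at 3.83, 3.13 and 5.47 CPM in CTL and at 16.4, 11.6 and 18.3 CPM in Nelfb-/-. Every Nelfb-/- library exceeded every control. By limma it rose by 1.90 on the log2 scale (SE 0.29, adjusted p 0.0107).

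Its partner Tlr1 (chr5:64924679-64933563, minus strand) was close to the detection floor in CTL, at 0.495, 0.101 and 0.174 CPM, and reached 3.58, 3.15 and 3.54 CPM in Nelfb-/-. The controls rested on few reads. With reads pooled by group and rounded, 18 in CTL and 216 in Nelfb-/-, the ratio was 14.0 (95% exact interval 8.62 to 24.0, counting error only). CTL replicate 1 held most of the control reads, and without it the ratio was 24.99 (11.9 to 62.9). By limma Tlr1 rose by 3.75 on the log2 scale (SE 0.53, adjusted p 0.0088).

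The other partner, Tlr6 (chr5:64952031-64960097, minus strand), stood at 0.949, 0.739 and 1.42 CPM in CTL and at 7.85, 3.95 and 4.25 CPM in Nelfb-/-. Nelfb-/- replicate 1 was the highest and all 3 were above the controls (log2 fold change 2.30, SE 0.39, limma adjusted p 0.0143). Tlr1 and Tlr6 are closely related neighbours on chromosome 5, and their values corresponded to fractions of reads in most libraries, so the division of reads between them is uncertain and the Tlr1 interval does not cover it.

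Tlr4 (chr4:66827584-66930284, plus strand), the lipopolysaccharide receptor, stood at 40.6, 36.2 and 22.9 CPM in CTL and at 49.8, 14.9 and 22.7 CPM in Nelfb-/-. The Nelfb-/- libraries held both the highest and the lowest value, and the groups overlapped (log2 fold change -0.33, SE 0.46, limma adjusted p 0.655). Cd14, which delivers lipopolysaccharide to TLR4 and lies on chromosome 18, stood at 3.74, 2.80 and 2.24 CPM in CTL and at 17.2, 9.72 and 8.08 CPM in Nelfb-/-. The groups did not overlap (log2 fold change 1.93, SE 0.35, limma adjusted p 0.0169). The Cd14 to Tlr4 ratio per kilobase of exon was 0.296, 0.248 and 0.315 in CTL and 1.11, 2.09 and 1.14 in Nelfb-/-, without overlap, where 3 against 3 libraries allow no exact permutation p below 0.1.

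Among the endosomal receptors, Tlr8 (X:167242696-167264329, minus strand), which senses single-stranded RNA, stood at 2.66, 1.07 and 2.72 CPM in CTL and at 37.98, 19.7 and 33.1 CPM in Nelfb-/-. The groups lay far apart (log2 fold change 3.85, SE 0.44, limma adjusted p 0.0055). Tlr8 was the only member that passed the test whichever single library was left out.

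Tlr7 (X:167304929-167330558, minus strand), its neighbour with a related ligand, stood at 14.9, 7.56 and 3.60 CPM in CTL and at 141, 26.8 and 42.0 CPM in Nelfb-/-. Both groups were widely spread, and Nelfb-/- replicate 1 was far above its group. By limma it rose by 2.86 on the log2 scale (SE 0.73, adjusted p 0.045), but the call was lost in each of the 6 fits that left out a library (adjusted p 0.0594 to 0.130, limma) and in the fit without an abundance trend (0.0618).

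Tlr9 (chr9:106222598-106226883, plus strand), the receptor for unmethylated CpG DNA, was supported by 2, 1 and 4 reads in CTL and by 57, 9 and 22 reads in Nelfb-/-. It was near the floor in CTL and low in Nelfb-/-, at 2.703, 0.524 and 0.898 CPM. The pooled ratio was 14.6 (95% exact interval 6.81 to 37.4, counting error only) and the limma adjusted p was 0.0288. Tlr9 entered that test only through its Nelfb-/- values. Without Nelfb-/- replicate 1, which held most of the reads, the ratio was 7.76 (3.35 to 20.9).

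Tlr3 (chr8:45395665-45411080, minus strand), which binds double-stranded RNA, stood at 4.83, 3.22 and 5.54 CPM in CTL and at 10.95, 9.31 and 10.04 CPM in Nelfb-/-. This was the smallest of the 8 rises (log2 fold change 1.18, SE 0.25, limma adjusted p 0.0272). The Tlr3 exons share 381 bases with Gm45542 on the opposite strand, and strand use in counting is not stated.

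Myd88 (chr9:119335934-119341411, minus strand) stood at 23.2, 19.6 and 37.9 CPM in CTL and at 26.5, 35.7 and 34.5 CPM in Nelfb-/-. CTL replicate 3 was the highest of all 6 libraries and the groups overlapped (log2 fold change 0.31, SE 0.27, limma adjusted p 0.481). It shares 290 exon bases with Acaa1a on the opposite strand.

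**Figure D2:**
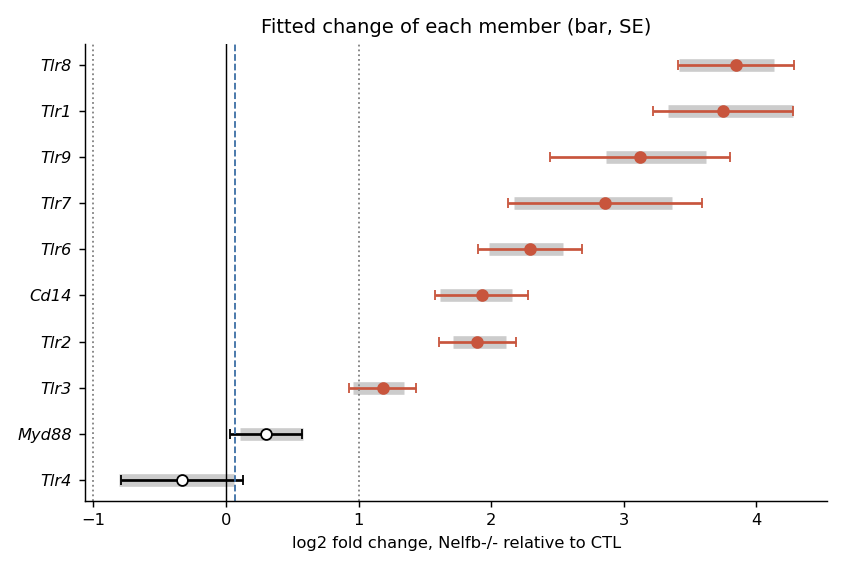
Log2 fold change (Nelfb-/- over CTL) of each member with its standard error, the grey band giving the range over the 6 fits that each left out a library and the dashed line the median of all tested genes, 0.068. The 8 that rose lie between 1.18 and 3.85.

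Leaving out a library ended several calls (limma adjusted p in each case). Tlr1 and Tlr2 lost theirs without Nelfb-/- replicate 3 (0.0551 and 0.0617), and Tlr6 without that library (0.0633) or CTL replicates 1 (0.0565) or 2 (0.0567). Cd14 lost its call without CTL replicate 2 (0.0659) or Nelfb-/- replicates 2 (0.0527) or 3 (0.0530), and Tlr9 without CTL replicates 1 (0.0892) or 2 (0.0993) or Nelfb-/- replicate 3 (0.102). Tlr3 kept its call only without CTL replicate 3 (0.0184) and reached at most 0.110, without Nelfb-/- replicate 3. All 8 members stayed higher in Nelfb-/- in these fits, but Tlr9 was below the filter on low values without Nelfb-/- replicate 1.

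Per kilobase of exon, Myd88 (10.5 CPM per kb) and then Tlr4 (5.98) had the highest mean levels in CTL, and each was apart from the next. Tlr7, Cd14, Tlr2, Tlr3, Tlr8 and Tlr6 followed, from 2.13 down to 0.278 CPM per kb, each overlapping its neighbour in the order, and Tlr1 and Tlr9 lay below, at 0.0767 and 0.0262 CPM per kb. In Nelfb-/- the means of Tlr7 (17.1 ± 15.2 CPM per kb, SD, n = 3), Myd88 (12.5) and Tlr8 (8.44) came first, all overlapping. Tlr7 led through replicate 1 alone (34.5, 6.57 and 10.3 CPM per kb in replicates 1, 2 and 3), and Tlr9 was again the lowest, at 0.395 CPM per kb. The Tlr4 to Tlr2 ratio per kilobase was 5.75, 6.28 and 2.27 in CTL and 1.65, 0.698 and 0.673 in Nelfb-/-, without overlap. Of 5 such ratios computed, Tlr1 to Tlr2 was also apart (0.0286 to 0.116 against 0.174 to 0.245), while Tlr6 to Tlr2 (0.191 to 0.210 against 0.188 to 0.388) and Tlr7 to Tlr8 (1.16 to 6.19 against 1.11 to 3.26) overlapped.

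**Figure D3:**
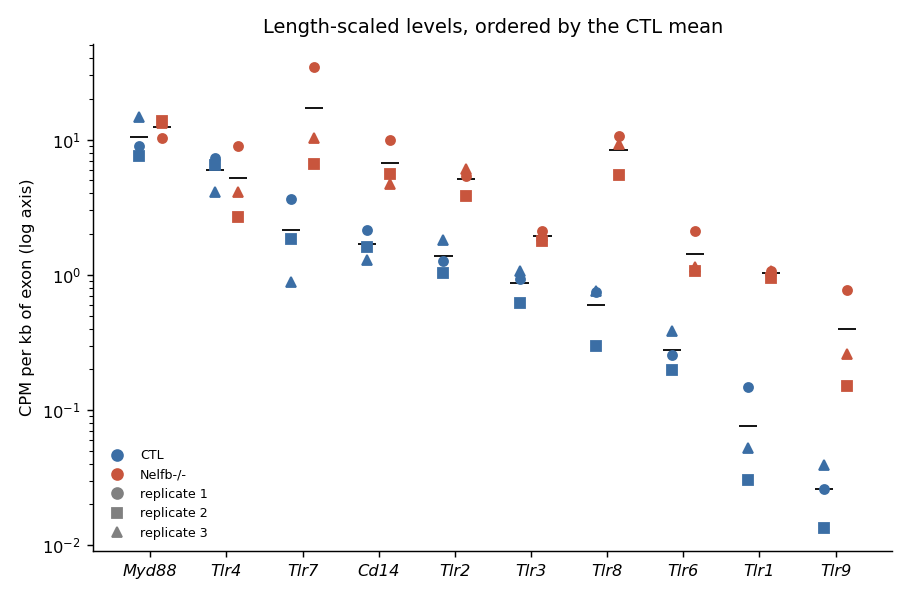
Level of each member in CPM per kilobase of exon (log axis) by library in CTL and Nelfb-/-. Myd88 and Tlr4 lead in CTL, and Tlr7 and Tlr8 overlap Myd88 in Nelfb-/-.

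Promoter sequences, the 250 bases before each annotated start (RefSeq, GRCm38.p6), were at hand for 9 starts of 7 members, with 2 starts each for Tlr1 and Tlr6. The sequences shown are those of the receptors that rose most in the main fit, beside Tlr2. With 5 reads rather than 1 added before taking log2, Tlr9 (2.109) ranked below Tlr7 (2.826) and about level with Tlr6 (2.113). Tlr7 had no promoter at hand, and the Tlr6 promoters, not shown, held no GAGGAA. Capitals mark GAGGAA (or TTCCTC on the other strand), the core recognised by the macrophage factor PU.1, in Tlr1, Tlr8 and Tlr9, and overlapping matches to an NF-kB-like motif (GGG and CC with 5 bases between) in Tlr2.
Tlr1, chr5:64933559-64933808, minus strand: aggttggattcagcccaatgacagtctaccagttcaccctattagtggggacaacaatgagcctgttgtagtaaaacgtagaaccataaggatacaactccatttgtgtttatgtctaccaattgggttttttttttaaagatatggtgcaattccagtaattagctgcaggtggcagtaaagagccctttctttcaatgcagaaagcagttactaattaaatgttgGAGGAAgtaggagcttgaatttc
Tlr2, chr3:83841609-83841858, minus strand: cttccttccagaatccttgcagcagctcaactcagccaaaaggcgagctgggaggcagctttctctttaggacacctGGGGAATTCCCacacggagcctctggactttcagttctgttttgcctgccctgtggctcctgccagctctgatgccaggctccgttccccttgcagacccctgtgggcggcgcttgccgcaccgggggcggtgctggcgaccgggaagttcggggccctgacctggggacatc
Tlr8, chrX:167264330-167264579, minus strand: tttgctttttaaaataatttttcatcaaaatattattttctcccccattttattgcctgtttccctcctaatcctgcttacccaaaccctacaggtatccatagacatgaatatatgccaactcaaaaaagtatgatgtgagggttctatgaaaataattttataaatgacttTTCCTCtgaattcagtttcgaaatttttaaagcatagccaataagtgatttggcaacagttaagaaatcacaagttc
Tlr9, chr9:106222348-106222597, plus strand: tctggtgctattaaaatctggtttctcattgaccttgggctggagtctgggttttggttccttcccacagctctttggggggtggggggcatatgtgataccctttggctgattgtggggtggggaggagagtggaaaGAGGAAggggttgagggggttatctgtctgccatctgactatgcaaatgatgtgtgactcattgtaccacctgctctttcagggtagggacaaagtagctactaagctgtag
Searched on both strands, GAGGAA was present in 3 of the 9 promoters, though not in that of the other Tlr1 start, and in 23.3% of 32851 promoters. An interferon-response-like motif (GAAA, 2 bases, GAAA) was in 2 of 9, of Myd88 and Tlr6, and in 2.98% of all. The NF-kB-like motif was in 3 of 9 and in 45.8% of all, and TATAAA in 3 of 9 and in 12.4%. A match does not show binding.

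Most macrophage markers were also higher in Nelfb-/-. The summed level of 20 such genes was 1136, 593 and 324 CPM in CTL against 9260, 2894 and 4920 CPM in Nelfb-/-, an 8.32-fold difference of means. Within CTL, Tlr1, Tlr7 and Cd14 were highest in replicate 1, as the sum was. Tlr2, Tlr3, Tlr6, Tlr8 and Tlr9 were highest in replicate 3, where the sum was lowest. Of the 20 markers, 19 were tested and 17 rose. Cd68 (adjusted p 0.158, limma) and Cd53 (0.0929) did not pass, while Cx3cr1 was at or under the floor in 4 libraries. Aif1 rose but averaged 0.111 CPM in CTL, below the 0.448 CPM filter. Spi1, which encodes PU.1, rose by 2.91 on the log2 scale (limma adjusted p 0.0197). Single low markers of other types rose as well: Itgax, listed for dendritic cells, from 0.133 to 1.37 CPM, the endothelial Emcn from 0.106 to 1.54 CPM and the keratinocyte Krt14 from 0.205 to 3.08 CPM (limma adjusted p 0.0440, 0.0320 and 0.0311) as 1 of 3, 6 and 5 tested. These too were below the filter in CTL and were tested through their Nelfb-/- values. The 2 neutrophil and 1 mast cell markers tested did not pass limma's test, also at an unadjusted p under 0.05, and of 8 B and T cell markers Lck alone had values, too low to test. The 8 fibroblast and 8 adipocyte markers were all detected, and none passed limma's adjusted test (unadjusted p under 0.05 for 4 and 3 of them, all 4 fibroblast markers being higher). The fibroblast sum was 5078, 4404 and 16812 CPM in CTL against 8255, 30529 and 33208 CPM in Nelfb-/-, overlapping through CTL replicate 3 and Nelfb-/- replicate 1, and the adipocyte sum was 24458 to 40576 against 17494 to 25791 CPM. Of 8 melanocyte markers 7 rose, all but Mitf, and of these Tyr, Tyrp1, Dct, Mlana and Slc45a2 were below the filter in CTL. The sum of all 8 was 70.5, 81.6 and 56.5 CPM in CTL against 215, 103 and 117 CPM in Nelfb-/-, and that of the 7 was 7.67 to 9.35 against 81.8 to 119 CPM.

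Set against every 1000 CPM of the macrophage markers, a ratio chosen after the values were seen, Tlr7 stood at 13.2, 12.7 and 11.1 CPM in CTL against 15.2, 9.27 and 8.53 CPM in Nelfb-/-. The groups overlapped for this ratio, as they did for Tlr1, Tlr2, Tlr6, Tlr8, Tlr9 and Cd14, with mean ratios in Nelfb-/- from 0.371 (Tlr2) to 1.92 (Tlr1) times those in CTL. The marker sum ran from 324 to 1136 CPM within CTL, and some control ratios spread widely (3.38, 5.27 and 16.9 for Tlr2). Overlap therefore does not show that these genes followed the markers. Tlr4 stood at 35.8, 61.0 and 70.7 CPM per 1000 CPM of markers in CTL and at 5.38, 5.15 and 4.62 in Nelfb-/-, and the ratios of Tlr3 and Myd88 were likewise lower in every Nelfb-/- library. The marker sum, the divisor, was higher in every Nelfb-/- library, so these lower ratios do not show lower levels of the genes. Tlr3 itself rose, and Tlr4 and Myd88 did not pass the test. In bulk RNA more cells of a type and more RNA per cell cannot be told apart, and the part of these cell types in the receptors' values was not tested.

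**Figure D4:**
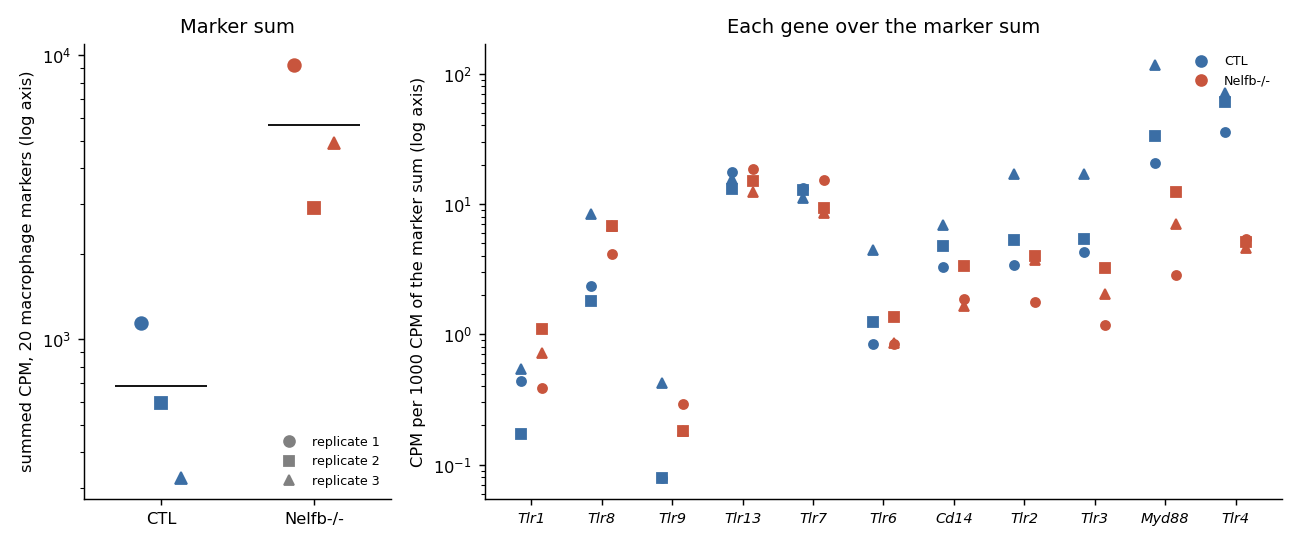
CPM of each member per 1000 CPM of the summed macrophage markers (log axis), by library. The groups overlap for 7 members. The ratio is lower in Nelfb-/- for Tlr3, Tlr4 and Myd88, where the marker sum it is divided by is higher.

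Of 85 further genes listed for the pathway, 73 were tested, 16 rose and none fell in limma's test (26 higher and 7 lower at an unadjusted p under 0.05), beside 7.58% and 3.64% of all tested genes, and the median log2 fold change was 0.26 beside 0.068. Among endogenous ligands, 3 of 8 tested rose. Tnc, the matrix protein tenascin-C that can activate TLR4, went from 142 ± 84.3 to 2752 ± 1157 CPM (SD, n = 3; log2 fold change 4.32, SE 0.51, limma adjusted p 0.0057), and Fn1 and Saa3 rose by 1.41 and 2.50 on the log2 scale. Tlr13, an endosomal sensor of bacterial ribosomal RNA, rose by 3.05 (limma adjusted p 0.0278), and the flagellin receptor Tlr5 stood at 6.57 ± 3.88 and 11.9 ± 1.05 CPM (adjusted p 0.131). Tlr11 and Tlr12 had no row in the expression table.

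Among 8 co-receptors and chaperones, the paired Cd180 and Ly86 rose, by 3.24 and 3.21 on the log2 scale (limma adjusted p 0.0089 and 0.0057). Ly96, the MD-2 subunit that TLR4 needs for lipopolysaccharide, stood at 2.69 CPM in CTL and 2.57 CPM in Nelfb-/- (adjusted p 0.805), and Unc93b1, which carries the endosomal receptors to their compartment, at 28.9 and 71.3 CPM, apart in every library (adjusted p 0.0681). Lbp, the plasma lipopolysaccharide carrier, stood at 12.5 and 13.2 CPM, and Cd36, which assists TLR2, at 3444 and 2095 CPM, below CTL in every library (adjusted p 0.134). Of the adaptors, Ticam2, the bridge from TLR4 to TRIF, rose from 1.49 to 6.51 CPM (limma adjusted p 0.0133), whereas Ticam1, encoding TRIF itself, stood at 49.5 and 39.3 CPM (adjusted p 0.380) and Tirap, which brings MYD88 to TLR2 and TLR4, at 13.7 and 21.6 CPM, also apart (adjusted p 0.0682).

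None of the 17 signalling kinases and ubiquitin ligases passed limma's adjusted test (4 higher and 4 lower at an unadjusted p under 0.05), where 11.2% of all tested genes were called, with log2 fold changes from -1.04 for Irak2 to 0.62. Irak4 and Irak1, the kinases next to MYD88, stood at 10.4 and 99.1 CPM in CTL and at 14.6 and 71.4 CPM in Nelfb-/-, and the ubiquitin ligase Traf6 at 47.2 and 34.6 CPM. Irf5, a transcription factor downstream of MYD88, rose from 5.63 to 27.8 CPM (limma adjusted p 0.0060), as 1 of 11 such factors, close to the 7.58% of all tested genes. Of 13 tested genes listed as inhibitors, 3 rose, beside 7.58% of all tested genes, and 10 did not pass (median log2 fold change 0.0071). The 3 were Il1rl1 (ST2), from 2.21 to 185 CPM, Nfkbie, from 1.76 to 4.86 CPM, and Socs1, from 1.91 to 5.84 CPM (limma adjusted p 0.0040, 0.0168 and 0.0416). Whether Il1rl1 acts as an inhibitor in these cells was not tested. Of 16 target genes listed, 13 were in the expression table and 10 were tested, of which 5 rose. Il1b, Ifnb1 and Csf3 had no values, and Cxcl2, Ccl5 and Nos2 were too low to test. Tnf and Il6 averaged below the 0.448 CPM filter in CTL and were tested through their Nelfb-/- values. Among them the chemokine Ccl2 went from 5.08 to 59.6 CPM (limma adjusted p 0.0058), Cxcl10 from 1.88 to 13.6 CPM (0.0114), Tnf from 0.168 to 0.873 CPM (0.0247), the adhesion molecule Vcam1 from 21.7 to 67.8 CPM (0.0459), and Il6 from 3 pooled reads to 104, a ratio of 40.3 (95% exact interval 13.4 to 199, counting error only; limma adjusted p 0.0060), with every CTL library at or under the floor.

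**Figure D5:**
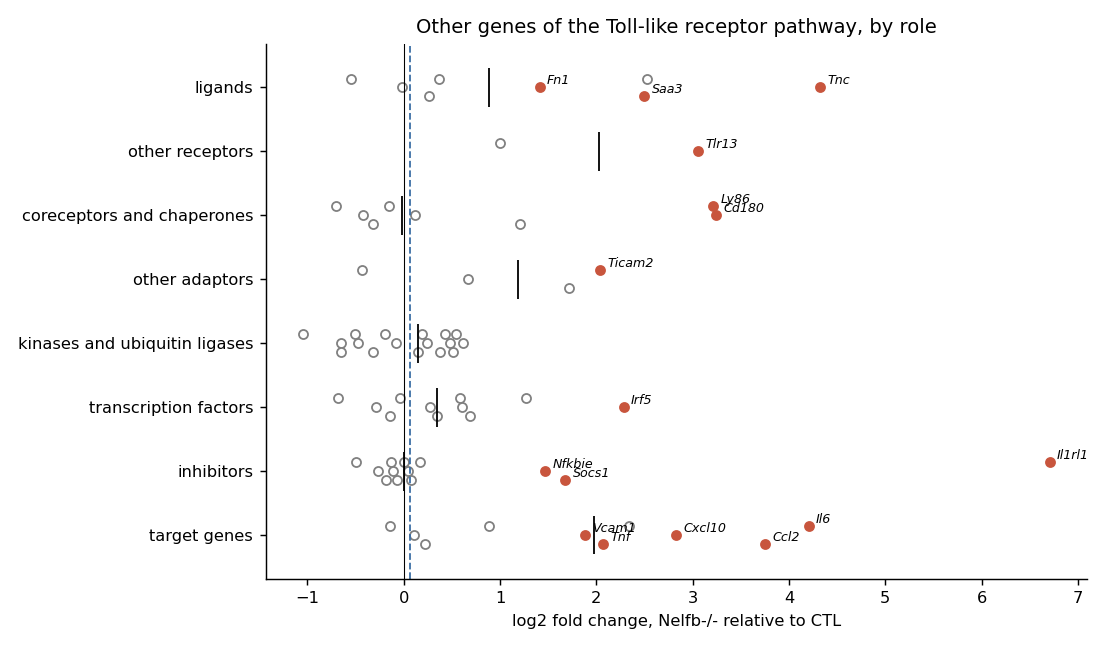
Log2 fold change (Nelfb-/- over CTL) of the tested pathway genes by role, each point a gene, with genes that passed the test marked. The kinases and ubiquitin ligases lie between -1.04 and 0.62, and differences between roles were not tested.

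By the root mean square difference of mean-centred log2 levels over the 6 libraries, the genes most like Tlr7 included Naip5 (0.113) and Cd300lb (0.142). For Tlr8 they were P2ry13 (0.183), P2ry6 (0.191) and Gpr34 (0.191), and for Tlr2 Otulinl (0.108) and Kcnk6 (0.115). The closest gene was Gcnt1 (0.216) for Tlr1, Tor4a (0.0843) for Tlr3, Gm4804 (0.182) for Tlr6, Gm15650 (0.318) for Tlr9 and Adgrg6 (0.164) for Cd14.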

How the data were processed

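RNA-seq was made from 3 CTL and 3 Nelfb-/- cultures, described as biological triplicates. The authors deposited 1 table of counts per 1000000 reads (CPM) with gene spans. The submitters' processing notes name STAR 2.7, Partek 9.0.20.0202 and mm10, and the counting tool is not given in the sources used here. Read totals were recovered from the smallest CPM steps. Of values of at most 20 reads, 69.2% to 72.3% were whole reads within 0.02 read, so no count model was fitted.

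At a common depth of 22.3 M reads, genes averaging 10 reads or more (0.448 CPM) were tested on log2(CPM + 1 read, 0.0448 CPM) with limma 3.58.1 (abundance trend), which understates changes of low genes, and p-values were Benjamini-Hochberg adjusted over all 16252 genes. Genes were called at 0.05 when the change also reached 2-fold. The code was tested on simulated data, and promoters were searched with Python 3.11.15. Members and gene lists were chosen with earlier results of these data known. Named genes were all members, the pathway genes called, those of defining role, and the closest genes in pattern. Alternatives were the pseudocount, the filter, the scaling, the trend, the replicate block and leaving out each library. Gene symbols were matched to GENCODE vM21 (17551 genes), and the start and stop columns gave the same span for 98.9% of these.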

Additional observations from a re-analysis of the deposited data

How the results depend on the processing

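Leaving out 1 library in turn gave 426 to 2479 genes called against 1824, with the lowest count without Nelfb-/- replicate 3 and the highest without CTL replicate 3. Members called ranged from 1 to 7 (1, Tlr8, without Nelfb-/- replicate 3) and pathway genes from 8 to 20. The 8 members that rose kept their call in 25 of 47 values and lost it in 22. Tlr4, not called, changed sign, and its log2 fold change was 0.059 without Nelfb-/- replicate 2 and lowest, -0.81, without Nelfb-/- replicate 1. Without CTL replicates 1, 2 and 3 members called numbered 4, 3 and 7, and without Nelfb-/- replicates 1 and 2 they numbered 5 and 5. The cause was not tested.

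Under the other 6 alternatives, 47 of 48 values of these members kept their call and Tlr7 lost it without the abundance trend. Replicate numbers did not pair the samples (same-number correlations 0.515, -0.395 and 0.518), and the replicate block gave 2175 genes called and changed no member call. By deviations from the group mean, CTL replicates 1 and 2 correlated with Nelfb-/- replicate 1 (0.515 and 0.480). CTL replicate 3 correlated with Nelfb-/- replicates 2 and 3 (0.536 and 0.518). Controls near the floor limit Tlr1 and Tlr9, whose fold changes moved with the pseudocount. With 5 and 0.25 reads the log2 fold change was 3.01 and 3.97 for Tlr1, against 3.75. For Tlr9 it was 2.11 and 3.53, against 3.12.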
